A study of Mus musculus with 3 samples.

Results

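The proteasome subunit genes were described by the 5-hydroxymethylcytosine (5hmC) peaks listed at them in mouse bone marrow cells. They were the protein-coding genes whose symbol is Psm, a letter from a to g and a number, which gave 48 of 21779 genes. The series has 3 labelled samples, 1 of normal bone marrow and 2 of NIDF-AML, an acute myeloid leukaemia induced in marrow cells by IDH2 R140Q, NPMc (a mutant NPM1), DNMT3A R882H and FLT3-ITD. The labels used here name no drug treatment, age, mouse strain or number of animals. 5hmC was tagged with a modified glucose, coupled to biotin, captured and sequenced, and the authors called peaks with PICS, which places a site from reads on both strands. The lists deposited under the 2 leukaemia labels were read, and a list for normal marrow was not analysed here.

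The lists were 100% identical over 223267 lines and were counted as 1 list of 208468 distinct peaks. In their headers the treatment library is index 4 each time, and the control is index 5 in the first list and index 6 in the second. The labels do not tie an index to a sample, so index 4 may be leukaemia or normal marrow, and a control may be another 5hmC library. The peaks therefore belong to the index 4 library and not to a named condition. There was therefore no replicate and no comparison of leukaemia with normal marrow. The list gives no height or score for a peak, read depth is unknown, and a gene without a peak is only a gene at which none was listed. Intervals cover counting error only. Markers of cell types were read against a background of 73.1% of all protein-coding genes, the share with at least 1 peak inside or up to 5 kb outside the span. Peaks lay at all 8 granulocyte and monocyte markers examined (5 to 34 each), at all 4 B lineage markers, at 3 of 3 T lineage markers and at 3 of 3 erythroid markers. A further erythroid marker of the list, Hbb-b1, was not found in the gene table. Peaks also lay at 2 of 3 hepatocyte markers (Apoa1 with 3, Ttr with 1 and Alb with 0) and at 0 of 3 neuronal markers. With so few markers of each type and so high a share over all genes, these counts do not identify the tissue.

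The proteasome is the large protease that degrades proteins marked with ubiquitin. Its core particle is a stack of alpha and beta rings, with the proteolytic sites on beta subunits, and a regulatory particle on top recognises, unfolds and threads in the substrate. Blood cells can exchange the catalytic beta subunits for interferon-inducible ones, which form the immunoproteasome and change the peptides offered on MHC class I. 5hmC is the product of TET enzymes acting on 5-methylcytosine, and it is known to lie in the bodies and flanks of active genes and to be scarce at CpG-rich promoters.

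Most proteasome subunit genes carried 5hmC peaks, in numbers that varied widely. A peak lay in the span or within 5 kb of 44 of the 48 genes, or 91.7% (Wilson 95% interval 80.4 to 96.7%), where 73.1% of all protein-coding genes had one. A peak lay in the span itself of 39, or 81.2%, against 66.6% of all genes. The median was 5 peaks per gene (quartiles 2.75 and 6.25), close to the median of 4 over all genes, and the range ran from 0 to 25. Of the 48 genes 8 (16.7%) had 10 or more peaks, against 25.5% of all genes, a share not matched for span. Of the 21 proteasome genes under 10 kb, Psmb9, Psma7, Psmc5 and Psme1 did, where 7.3% of all genes of that span did. Of the 19 genes of 10 to 30 kb, Psmb3, Psmc1 and Psmd3 did, against 25.6%. For genes over 30 kb, the class of Psma6, that share was not computed. In all, 252 distinct peaks lay at the 48 genes, and the 12 genes with the most held 54.3% of the gene and peak pairs. With each peak given only to its nearest gene the median fell from 5 to 3, and within the spans alone it was 2. Over all genes these medians were 3 and 2.

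**Figure D1:**
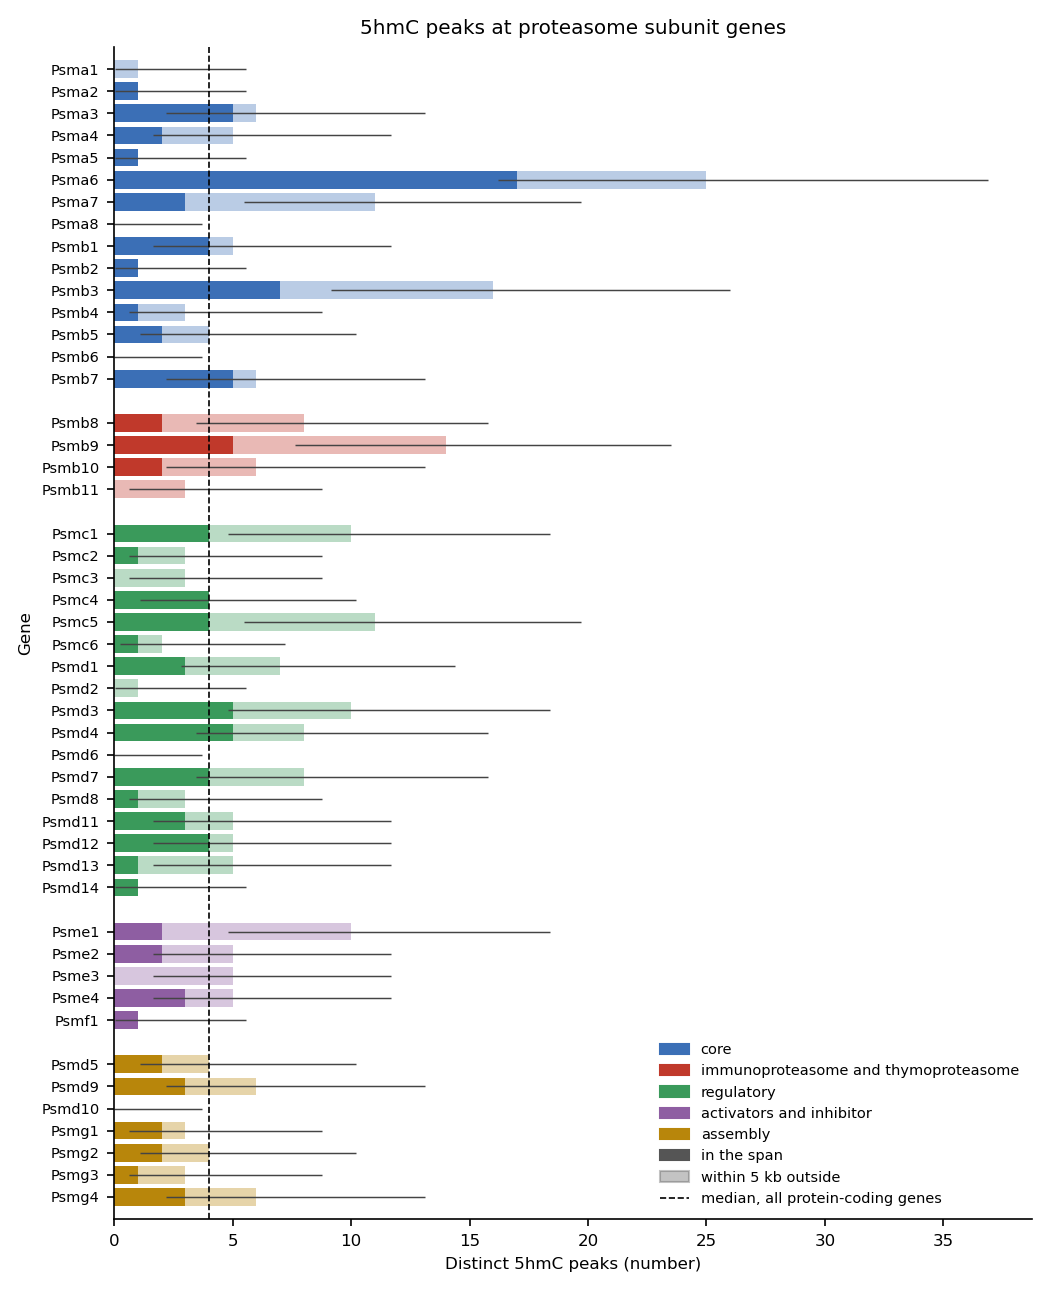
Number of distinct 5hmC peaks at each proteasome subunit gene, grouped by role, with peaks in the span in full colour, peaks within 5 kb outside it in pale colour, and exact Poisson 95% intervals as lines. Psma6 (25), Psmb3 (16) and Psmb9 (14) reach highest, and Psma8, Psmb6, Psmd6 and Psmd10 have no bar.

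Proteasome subunit genes are short, with a median span of 11.9 kb against 17.2 kb over all genes, and their share with a peak was read within classes of span. Of the 21 genes under 10 kb, 18 had a peak (85.7%), where 55.2% of all genes of that span had one. Their median was 5 peaks, or 0.289 per kb of span and flanks, against 1 peak and 0.0747 per kb. All 19 genes of 10 to 30 kb had a peak, against 80.1% of genes of that span, but their density was like that of the class, at a median of 0.154 against 0.161 per kb. Among the 8 longer genes 7 had a peak (87.5% against 86.0%), with a median of 0.0623 against 0.0958 per kb. The higher density was thus found at the short genes. Over all 48 the median was 0.185 peaks per kb against 0.106, and 31 lay above that value. Across the 48 genes Spearman's rho between the number of peaks and the span was -0.08, and over all protein-coding genes it was 0.44; the genes of either set share 1 library.

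**Figure D2:**
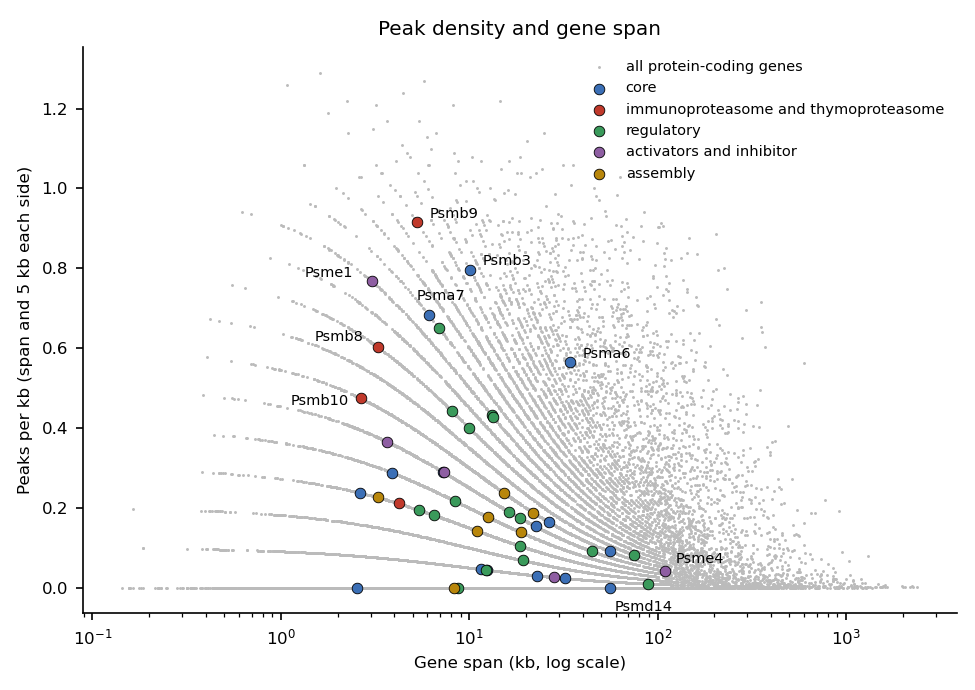
Peaks per kb of span and flanks against gene span on a log axis, for all protein-coding genes (grey) and the proteasome subunit genes (coloured by role). Psmb9 (0.915 per kb) and Psmb3 (0.797) are the highest of the coloured points, and the genes over 30 kb lie low except Psma6 (0.565).

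The starts of the proteasome subunit genes were almost free of peaks. The promoter table of RefSeq (build GRCm38.p6) lists 43 starts for 40 of the 48 genes. Psma6, Psmc2 and Psme2 have 2 each, so a peak near both starts is counted at each. The intervals treat the starts as independent. Of the 43 starts 1 had a peak within 500 bp, or 2.33% (Wilson 95% interval 0.412 to 12.1%), against 12.3% of the 21263 starts of all protein-coding genes. At 500 to 2500 bp from the start the order was the other way round, with a peak at 28 of 43 starts (65.1%) against 47.4%. The 47.4% is not matched for the CG content of the starts, which is read below. The first 500 bp after the start held 0 peaks over the 43 starts, which allows up to 0.172 per kb by the exact Poisson interval. The density then rose to 0.279 per kb at 500 to 1000 bp and 0.357 per kb (exact Poisson interval 0.226 to 0.535) at 1000 to 2500 bp into the gene. All genes showed a shallower dip, from 0.265 per kb at 1000 to 2500 bp to 0.127 in the first 500 bp, and in each of these distance classes the all-gene value lay inside the interval of the proteasome genes.

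**Figure D3:**
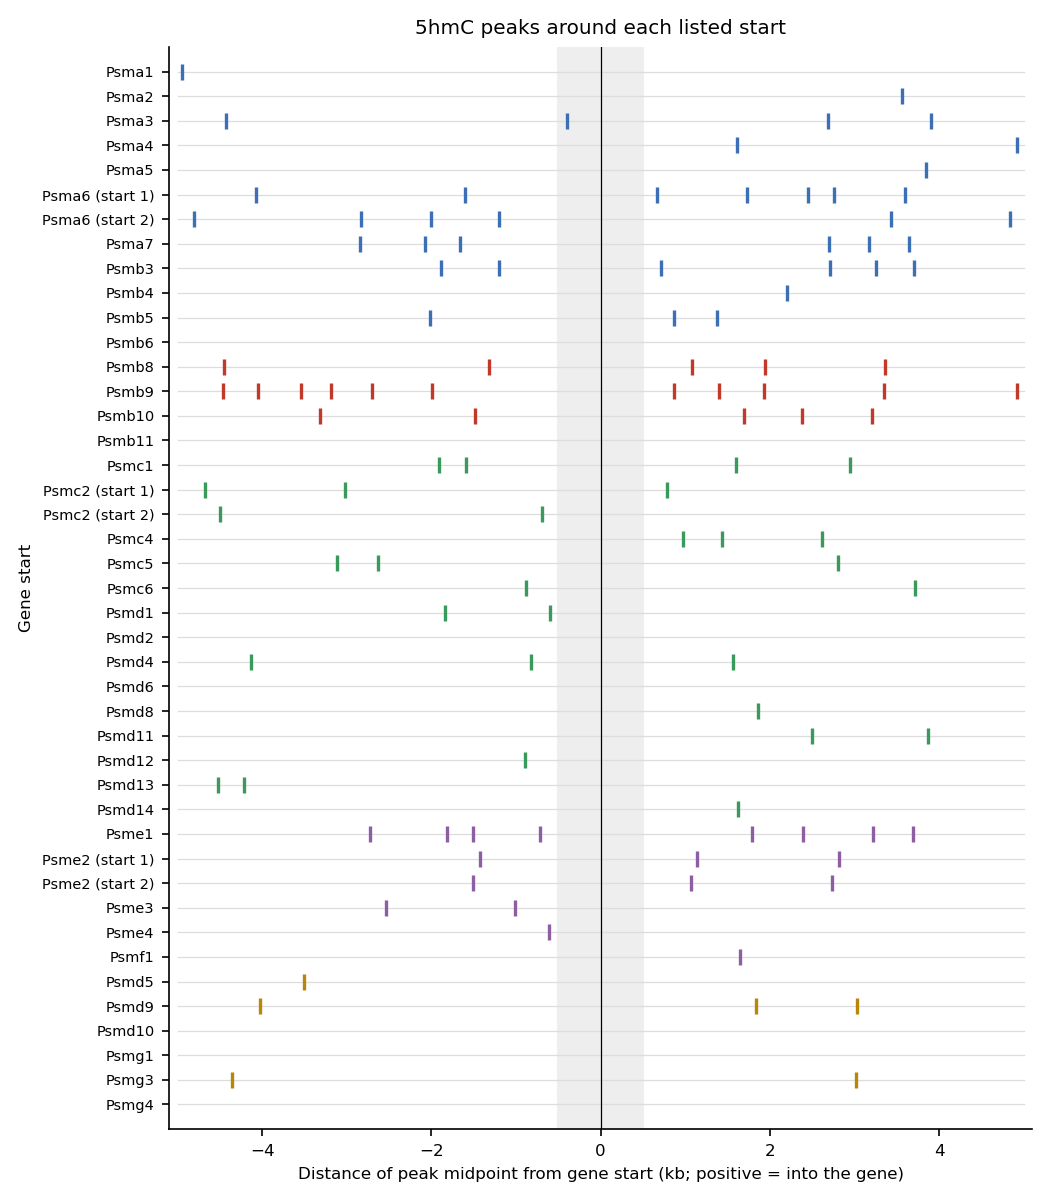
Midpoints of 5hmC peaks (ticks, coloured by role as in the plot of counts per gene) within 5 kb of each of the 43 listed starts, in kb, with the direction of the gene to the right. The grey band marks 500 bp on each side of the start and holds 1 tick, at Psma3.

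These starts are rich in CG, the dinucleotide at which 5hmC mostly lies. The promoter windows, from 250 bases before to 50 after the start, held a median of 19 CG, against 13 over all protein-coding starts, and 72.1% held 13 or more, against 50.9%. Of all protein-coding starts with 13 or more CG, 8.48% had a peak within 500 bp, which lies inside the interval of all 43 proteasome starts. Among the 31 proteasome starts with 13 or more CG, 0 had one, and no interval was computed for these 31. The 1 start with a peak, that of Psma3, had 10 CG in its window. At 500 to 2500 bp from a start, the share with a peak was also read by CG class. With 13 to 23 CG it was 66.7% of 21 proteasome starts against 59.1% of all starts. With 24 or more it was 60% of 10 against 63.9%. With 5 to 12 CG it was 66.7% of 9 against 45.5%, and with 0 to 4 it was 66.7% of 3 against 23.1%. At CG-rich starts the contrast at that distance was thus small or reversed. None of the 43 windows held the midpoint of a peak. The same share over all protein-coding starts was not computed. Within 500 bp of those starts the density was 0.136 peaks per kb, and the windows are short. The 0 is therefore not read as a result about these genes. Of the windows 6 are shown here, CG-rich and CG-poor. Each is printed as the 250 bases before the start, 5′ to 3′ on the strand of the gene, with every CG in capitals.
Psmb9, the subunit with the densest peaks, chr17:34187331-34187580, minus strand, 12 CG: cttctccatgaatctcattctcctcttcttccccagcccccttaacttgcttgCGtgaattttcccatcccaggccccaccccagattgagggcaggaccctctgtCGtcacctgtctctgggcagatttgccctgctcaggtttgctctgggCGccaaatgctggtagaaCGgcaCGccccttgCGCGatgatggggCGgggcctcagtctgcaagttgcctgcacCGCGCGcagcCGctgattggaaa
Psmb8, its neighbour in the MHC region, chr17:34197945-34198194, plus strand, 10 CG: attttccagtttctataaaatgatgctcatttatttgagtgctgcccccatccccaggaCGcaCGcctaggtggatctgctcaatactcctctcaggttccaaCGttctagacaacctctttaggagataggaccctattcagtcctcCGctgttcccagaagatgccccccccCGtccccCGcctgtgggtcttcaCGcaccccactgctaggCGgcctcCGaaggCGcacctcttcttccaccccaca
Psmb10, a CG-poor window, chr8:105938393-105938642, minus strand, 3 CG: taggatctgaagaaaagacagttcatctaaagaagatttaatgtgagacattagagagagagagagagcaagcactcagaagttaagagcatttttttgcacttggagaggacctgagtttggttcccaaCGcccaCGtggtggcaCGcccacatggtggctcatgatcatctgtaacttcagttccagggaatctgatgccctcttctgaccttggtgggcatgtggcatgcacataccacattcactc
Psmc4, a CG-rich window, chr7:28050093-28050342, minus strand, 29 CG: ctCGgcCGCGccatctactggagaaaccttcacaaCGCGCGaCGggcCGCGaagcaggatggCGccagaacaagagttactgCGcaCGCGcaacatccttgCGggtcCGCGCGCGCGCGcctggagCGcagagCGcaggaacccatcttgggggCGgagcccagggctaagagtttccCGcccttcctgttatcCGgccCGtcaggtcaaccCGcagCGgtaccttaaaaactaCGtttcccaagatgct
Psma3, the gene whose start had a peak within 500 bp, chr12:70974373-70974622, plus strand, 8 CG: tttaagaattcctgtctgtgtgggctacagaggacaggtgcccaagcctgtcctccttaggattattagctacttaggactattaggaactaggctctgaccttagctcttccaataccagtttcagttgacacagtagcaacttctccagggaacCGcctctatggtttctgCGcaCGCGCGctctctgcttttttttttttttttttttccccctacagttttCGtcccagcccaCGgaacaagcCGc
Psmd6, a gene with no peak within 5 kb, chr14:14120946-14121195, minus strand, 14 CG: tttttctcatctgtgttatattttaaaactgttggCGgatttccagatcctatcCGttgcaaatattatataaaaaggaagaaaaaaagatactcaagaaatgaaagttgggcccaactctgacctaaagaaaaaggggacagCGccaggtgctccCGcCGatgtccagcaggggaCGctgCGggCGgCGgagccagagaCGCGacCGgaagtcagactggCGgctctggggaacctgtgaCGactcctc

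The nearest peak to the Psmb9 start lay 866 bp away, that to the Psmb8 start 1084 bp, that to the Psmb10 start 1479 bp and that to the Psmc4 start 972 bp. At Psma3 it lay 399 bp before the listed start, in the 49 bp interval from 70974200 to 70974248 on chromosome 12, upstream of the window printed. The gene table lets Psma3 begin farther upstream, so that peak is inside the annotated span. The start of Psmd6 was 25080 bp from any peak. The windows were also searched on both strands for TGACNNNGC, the core of the antioxidant response element that NRF1 and NRF2 bind at proteasome genes. It matched in 6 of the 43 windows (Psmb5, Psmb6, Psmc6, Psmd9, Psmd12 and Psme4), or 14%, and in 13% of the windows of all protein-coding starts. That share is near the background, and Psmb6 among them had no peak within 5 kb.

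Peaks were also frequent after the ends of these genes. The 5 kb after the end held 74 gene and peak pairs at 40 genes. Their density was 0.37 per kb (exact Poisson interval 0.291 to 0.465), against 0.191 per kb over all protein-coding genes. The 2 peaks near both Psme1 and Psme2 lie after the end of each gene and are counted for each. The 5 kb before a start held 0.247 per kb (0.185 to 0.322), against 0.183. That count is 53 over 43 listed starts, with a peak entered once for each start. Some of these peaks lie inside a span, as between the starts of Psma6, and 44 gene and peak pairs lay before the span. The value over all genes was counted in the same way. In 55 of the 74 pairs the peak also lay within 5 kb of another protein-coding gene. The assignment of these peaks to the proteasome gene was not tested. The same share over the ends of all protein-coding genes was not computed.

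**Figure D4:**
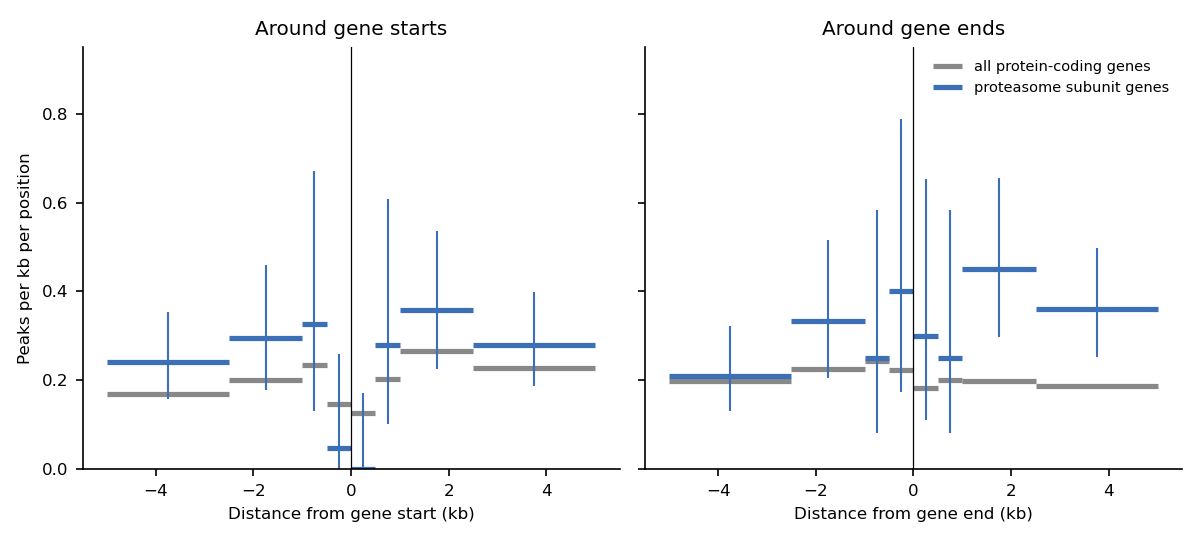
Peaks per kb around gene starts (left) and gene ends (right) by distance in kb, for proteasome subunit genes (blue, with exact Poisson 95% intervals) and all protein-coding genes (grey); horizontal bars span each distance class. The blue bars drop to 0 in the first 500 bp after the start and stand highest, at 0.45 per kb, from 1 to 2.5 kb after the end.

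Of the constitutive core particle, 13 of 15 genes had a peak, and the counts spread widely. The alpha subunits build the outer rings that gate the entry of substrate, and 7 of their 8 genes had a peak, with a median of 3. Psma6 led with 25 peaks (exact Poisson interval 16.2 to 36.9), Psma7 had 11, Psma3 6 and Psma4 5. All 11 of Psma7 also lay within 5 kb of Lsm14b or Ss18l1, and 4 had Psma7 as nearest gene. Psma1, Psma2 and Psma5 had 1 each. Psma8, the form of the testis, had none over its 56.2 kb on chromosome 18 (14706135 to 14762301), and its nearest peak was 22.5 kb away. A count of 0 allows up to 3.69 peaks by the exact Poisson interval.

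Psma6 spans 34.2 kb on chromosome 12 (55384222 to 55418459) and has 2 listed starts. Its 17 peaks in the span were not spread evenly. The 14.6 kb between the starts held 13 peaks, or 0.89 per kb, and the 19.6 kb from the second start to the end held 4, or 0.204 per kb. A further 6 lay in the 5 kb after the end. Of the 25 peaks of Psma6, 6 also lay within 5 kb of its neighbour Prorp, some of them between the starts, and 23 had Psma6 as nearest gene. The window of the first start has 3 CG and that of the second has 22. Counted from the second start with the same flanks, Psma6 had 14 peaks in place of 25, a way of counting chosen after the data were seen. Among all genes over 30 kb, 18.6% had as many peaks as the 25 in the whole span and flanks of Psma6, and 4.9% had as high a density.

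Beta subunits carry the proteolytic sites, and 6 of the 7 constitutive genes had a peak, with a median of 4. Psmb3, a non-catalytic subunit, had 16 peaks (9.15 to 26) on chromosome 11 (97703434 to 97713500), 7 of them in its 10.1 kb span. All 16 also lay within 5 kb of a neighbour, 6 near the Polycomb gene Pcgf2 and 10 near Pip4k2b, a lipid kinase gene, and 8 had Psmb3 as nearest gene. Psmb7 had 6, Psmb1 5, Psmb5 4, Psmb4 3 and Psmb2 1. Psmb6 had none in its 2.54 kb on chromosome 11 (70525324 to 70527858). Its nearest peak lay 5164 bp away, just past the flank, and 24 peaks lay in the 50 kb beyond the flank on each side.

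All 4 genes of the immunoproteasome and thymoproteasome had peaks, with the highest median density of the 5 role groups, 0.539 per kb. The other groups had 0.289 (activators and inhibitor), 0.182 (regulatory particle), 0.177 (assembly) and 0.154 (constitutive core). This group had the shortest median span, 3.75 kb, and their surroundings were rich in peaks, with a median of 50 in the 50 kb on each side against 21 over all 48 genes. The part of those surroundings in the density was not tested. Psmb9, the interferon-inducible counterpart of Psmb6, had 14 peaks (7.65 to 23.5) in and around its 5.3 kb on chromosome 17 (34182030 to 34187330), 5 of them in the span, or 24 with repeated lines counted. Its 0.915 per kb (0.5 to 1.54) was the highest density of the set, and 1.06% of all genes under 10 kb had as high a density. Psmb8, the counterpart of Psmb5, had 8 peaks (3.45 to 15.8) at 34198195 to 34201454 on the same chromosome, 2 of them in the span. Psmb10, the counterpart of Psmb7, had 6 on chromosome 8 (105935728 to 105938392), again 2 in the span. All 6 also lay within 5 kb of Lcat, Ctrl, Pskh1 or Slc12a4. Psmb11, the thymus form, had none in its span and 3 downstream, all of which lay nearer to Cdh24.

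Each inducible catalytic subunit was set beside the constitutive one it replaces. Psmb9 had 14 peaks and Psmb6 had 0, and their intervals per kb, 0.5 to 1.54 and 0 to 0.294, did not overlap. Psmb8 had 8 and Psmb5 had 4, with 0.603 and 0.288 per kb and overlapping intervals. Psmb10 and Psmb7 had 6 each, over windows of 12.7 and 65.9 kb, or 0.474 and 0.091 per kb, and their intervals (0.174 to 1.03 and 0.0334 to 0.198) overlapped. Counted with the 5 kb flanks, the inducible gene was thus the denser in all 3 pairs, and the intervals lay apart only in the first pair. With each peak given only to its nearest gene the order of the second pair turned, as Psmb8 kept 3 peaks over a window of 13.3 kb and Psmb5 kept 4 over 13.9 kb. In the first pair Psmb9 then kept 8 peaks (exact Poisson interval 3.45 to 15.8) and Psmb6 had 0 (0 to 3.69), and these intervals overlapped. The spans alone held 5 peaks at Psmb9 (1.62 to 11.7) and 0 at Psmb6, again with overlapping intervals.

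Psmb9 and Psmb8 flank Tap1, the gene of a subunit of the peptide transporter that feeds MHC class I, and Tap2, the gene of the other subunit, follows. From 5 kb before Psmb9 to 5 kb after Tap2 there were 38 peaks (26.9 to 52.2) in 44.3 kb, or 0.858 per kb. Psmb9 and Tap1 are read in opposite directions from starts close to each other, and the shared promoter stretch, printed above for Psmb9, lay in a gap between a peak 866 bp into Psmb9 and a peak at -1990 bp from its start. Of the 14 peaks of Psmb9, 10 also lay within 5 kb of Tap1, and all 8 of Psmb8 lay within 5 kb of Tap1 or Tap2. With each peak given to the nearest gene, Psmb9 kept 8 and Psmb8 kept 3.

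**Figure D5:**
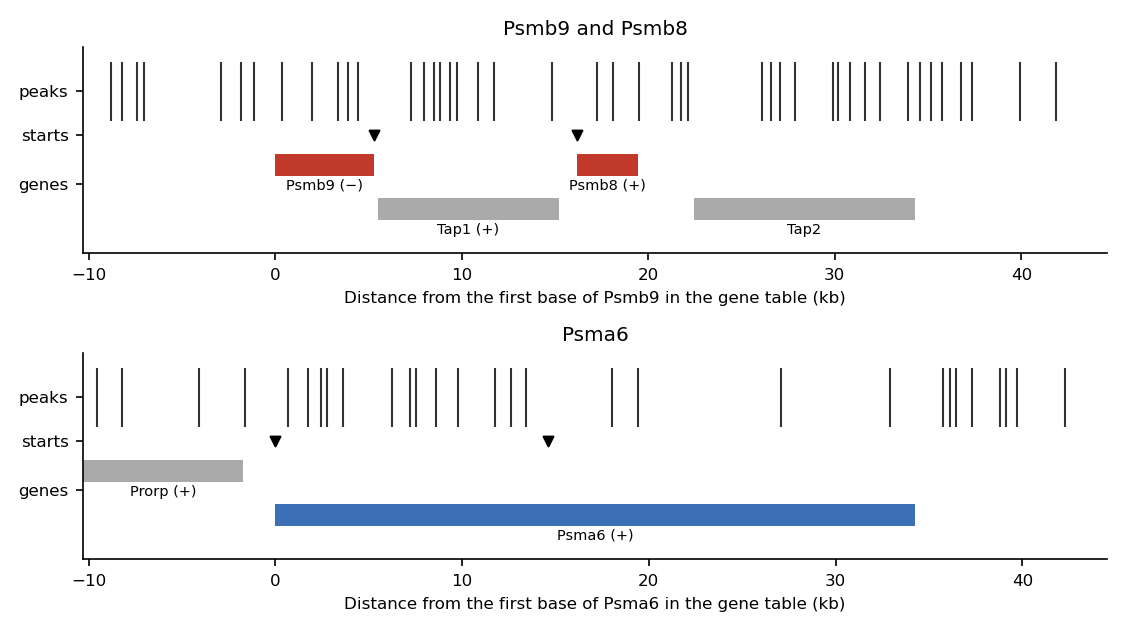
Peaks (vertical lines), listed starts of the proteasome genes (triangles) and genes (bars; proteasome genes coloured, others grey, with the strand where listed) at Psmb9 and Psmb8 and at Psma6, in kb from the first base of Psmb9 or Psma6. Peaks lie along the whole upper stretch, with gaps that include both marked starts, and at Psma6 they gather between the starts and after the end of the gene.

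Of the regulatory particle, 16 of 17 genes had a peak. All 6 ATPase genes, whose products form the ring that unfolds substrates, had peaks, with a median of 3.5. Psmc5 had 11 on chromosome 11 (106256185 to 106263112), 4 in its span, and all 11 were within 5 kb of Smarcd2, Ftsj3 or Ddx42. Psmc1 had 10, 5 of them also near Nrde2, Psmc4 had 4, all of them in its span, and Psmc2 and Psmc3 had 3 each. Psmc6 had 2. Psmc3 had none in its span, with the nearest 1904 bp outside.

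Among the 11 non-ATPase genes 10 had a peak, with a median of 5. Psmd3, a scaffold subunit of the lid, had 10 on chromosome 11 (98682554 to 98695978), and 5 of them also lay within 5 kb of Csf3, the gene of granulocyte colony-stimulating factor. Of the 10, 1 also lay within 5 kb of Gsdma and 1 within 5 kb of Med24. Psmd4, a receptor for ubiquitin chains, and Psmd7, the partner of the deubiquitinase subunit, had 8 each, and none of these 16 peaks lay within 5 kb of another protein-coding gene. Psmd1, a large scaffold of the base, had 7 over 74.7 kb. Psmd11, Psmd12 and Psmd13 had 5 each and Psmd8 had 3. Psmd14, the deubiquitinase itself, had 1 peak in 88.7 kb, and 81.2% of genes over 30 kb had as high a density. Psmd2, another scaffold of the base, had 1, which lay 525 bp past its end. Psmd6 had none on chromosome 14 (14112185 to 14120945), its nearest peak was 16.3 kb away, and 11 lay in the 50 kb on each side.

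All 4 activator genes and the inhibitor gene had peaks. Psme1 and Psme2 encode the interferon-inducible activator cap and lie close together on chromosome 14. Psme1 had 10 peaks (4.8 to 18.4) at 55578494 to 55581527, the third highest density at 0.767 per kb, and Psme2 had 5. Together their stretch of 22.6 kb held 13 peaks, and 2 of them lay within 5 kb of both genes. All 10 of Psme1 also lay near a neighbour, 9 of them near Emc9 and 7 near Fitm1, and 3 had Psme1 as nearest gene. Psme3, a nuclear activator, had 5 peaks, none in its span. Psme4, the activator gene with the longest span at 109 kb, had 5, or 0.0419 per kb. Psmf1, the inhibitor, had 1.

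Of the assembly chaperones, 6 of 7 genes had a peak, and none had more than 6. Psmd9 and Psmg4 had 6 each. At Psmd9 3 of them also lay within 5 kb of Wdr66, and at Psmg4 5 lay within 5 kb of Slc22a23. Psmd5 and Psmg2 had 4 each, and Psmg1 and Psmg3 had 3 each. Psmd10, also known as gankyrin, is the sole gene of the set on chromosome X (140948425 to 140956711). It had none, with the nearest peak 312 kb away and 0 in the 50 kb on each side. On autosomes alone, 44 of 47 proteasome genes (93.6%) had a peak, against 76.1% of all autosomal genes. The share among genes of chromosome X was not computed, so the lack of a peak is not read as particular to Psmd10.

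The neighbourhood of a gene went with its own density. The 50 kb beyond the flank on each side held a median of 21 peaks at proteasome genes and 11 over all genes. Across the 48 genes, surroundings and density had a Spearman rho of 0.53, and over all protein-coding genes it was 0.79; the points share the library, and windows of neighbouring genes overlap. Exceptions were found in both directions. Psma4 had 5 peaks with 1 in its surroundings, and Psmc4 had 4 with 2. Psma5 had 1 peak with 33 in its surroundings, and Psmb6 had 0 with 24.

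Neighbours shared many of the peaks. Of the 252 distinct peaks, 135 lay within 5 kb of another protein-coding gene, 29 of the 48 proteasome genes shared at least 1 peak, and 13 shared all of theirs. The same shares over all protein-coding genes were not computed, so sharing is not read as a trait of the proteasome genes. The list repeats 63 of the 252 intervals, up to 3 times each, and 54 of these 63 lay near another protein-coding gene, against 81 of the 189 listed once (42.9%). Over the whole list 223267 lines gave 208468 distinct intervals, so repeats were less common there than among the peaks of the proteasome genes. The whole list is not limited to peaks near genes. The share of repeats among all peaks within 5 kb of a protein-coding gene was not computed. Repeats are therefore not read as a trait of the proteasome genes. Peaks at proteasome genes had a median width of 65 bp, as had all peaks of the list.

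Other genes of the ubiquitin-proteasome pathway and of peptide presentation were counted in the same way. Of 33 listed, 32 were found in the gene table and 28 (87.5%) had a peak, against 73.1% of all protein-coding genes, and the difference was not tested. Their median was 5.5 peaks and 0.171 per kb. The list includes Tap1 and Tap2, whose peaks are in part those of the immunoproteasome genes. Psmb9 shares 10 peaks with Tap1, and Psmb8 shares 5 with Tap1 and 5 with Tap2. Nfe2l2, which encodes the transcription factor NRF2, had 32 peaks in and around 29.2 kb. Ddi2, the protease that activates NRF1, had 23, Tap2 had 20, and Tap1 and the core assembly factor Pomp had 16 each. Nfe2l1, the gene of NRF1, had 5. The deubiquitinase Usp14, the ubiquitin gene Rps27a, the shuttle factor Ubqln2 and the ubiquitin-activating enzyme Uba1 had none, and the last 2 are on chromosome X.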

How the data were processed

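Peaks of 5hmC came from the lists deposited under the 2 leukaemia labels. The authors made them with PICS, and per the file headers reads were taken as 99 bp and fragments as 200 bp, in windows of 250 bp, with at least 3 reads in a window and 10 in a region. The build is mm10, per the submitters' processing notes; aligner and score cutoff are not given in the sources used here. A deposited line holds a chromosome, a start and an end, with rounded positions, and no other value.

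Each interval was counted once. Gene spans, 1 per gene, were read from the GRCm38.p6 RefSeq table (mm10 has the same chromosomes), and 108 models placed below 3 Mb, where mouse chromosomes other than Y have no assembled sequence, were left out. Peaks were given to any gene with the peak's midpoint in its span or in the 5 kb beside it. Starts and strand came from the RefSeq promoter table, which matched 40 of the 48 genes. Intervals are exact Poisson or Wilson at 95% and treat peaks and starts as independent. The members, roles and gene lists were chosen with earlier results of these data known. Each role's genes with the most and with no peaks, the 12 genes with the most peaks, the 5 densest and the neighbours sharing their peaks are named with values, as are the 5 pathway genes with the most peaks and those with none; further genes are named to account for every member. No test was run, as there is 1 list. Counting was checked on simulated data (Python 3.11.15, pandas 2.3.3, scipy 1.17.1).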

Additional observations from a re-analysis of the deposited data

How the results depend on the processing

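Counting in the gene span alone, with flanks of 2 or 10 kb, with repeated lines, by any overlap, by the nearest gene only, on autosomes, or with suffixed symbols added (Psme3ip1, Psme2b and Psmc3ip) left the share of proteasome genes with a peak between 81.2 and 93.8%. In the span alone the median fell to 2 peaks per gene and the number of distinct peaks to 120, since less sequence is counted. The median density stayed between 0.117 and 0.211 per kb, above that of all genes (0.0839 to 0.122) under each of the 7 ways of placing and counting peaks. For single genes, the span alone moved 14 of 48 counts outside their Poisson interval, and the nearest gene only moved 7. Counted from its second start, Psma6 had 14 peaks. Leaving out either leukaemia list gave 252 distinct peaks again because the lists are identical, which says nothing about stability. No paired analysis was possible because the labels number only the leukaemia samples and their lists are the same. With no score in the lists, a stricter peak threshold could not be applied.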
